A study of Mus musculus with 24 samples.

Results

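The genes described here were the transcription factor Nrf2 (gene Nfe2l2) and 9 of its known antioxidant target genes, Akr1b8, Hmox1, Nqo1, Slc7a11, Gclc, Gclm, Gsr, Txnrd1 and Srxn1. They were found by symbol among the 18091 genes of the wild-type table, where all 10 were present, and all 10 were among the 12249 genes with a mean of at least 10 that were tested. Akr1b8 was selected on its measured level, which had been seen to be higher with basal S1P than in the other groups, and the others were chosen by name as known targets. The levels of Akr1b8 and the changes of all 10 genes with basal S1P are therefore given as a description, with no test.

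Poly(A) RNA was sequenced from primary microvascular endothelial cells of mouse cortex and midbrain (MBMECs), which line the small vessels there. The cells stood on transwell inserts, in which the apical, blood-facing side and the basal side can be treated apart. Wild-type cells (strain C57B/6J) received 50 nM sphingosine-1-phosphate (S1P, a lipid signal carried in blood) on the basal side, S1P on the apical side, 500 nM of the S1P4 receptor agonist CYM50260 on the basal side, the agonist on the apical side, or vehicle, with 4 libraries in each group. A further 4 vehicle-treated libraries came from cells labelled S1P4 KO/KO. All groups had had 48 h of puromycin against other cell types and were harvested 24 h after treatment, with 3 inserts pooled per sample and 12 mice per replicate. Whether each library had its own pool of mice is not stated, and the p-values measure only the spread between the libraries, part of which may be technical. S1P basal is called barrier-opening in the series' design text, and the other 3 treatments barrier-tightening.

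Nrf2 is a transcription factor that the adaptor protein Keap1 marks for degradation. Oxidants and electrophiles modify cysteines of Keap1, Nrf2 then builds up in the nucleus, and with a small Maf protein it binds antioxidant response elements near its targets. The targets make and recycle glutathione, reduce thioredoxin and peroxiredoxins, and break down heme, quinones and reactive aldehydes. Brain endothelial cells are exposed to oxidants carried in blood and are known to express these enzymes. Much of the control of Nrf2 acts on the protein, which RNA levels do not show.

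The promoters of 5 genes are shown because these 5, with Hmox1, were highest in the same libraries, as described below. Each is the RefSeq window on GRCm38.p6 from 250 bases before to 50 bases after a transcript's start, written 5′ to 3′ on the strand of the gene. Capitals mark matches, on either strand, to TGACNNNGC, the core of the antioxidant response element, or to TGAGNNNGC, a related element added to the search after the data had been seen. The windows are at chr6:34353896-34354195 on the plus strand for Akr1b8, chr3:122245307-122245606 on the plus strand for Gclm, chr10:82858956-82859255 on the plus strand for Txnrd1, chr2:152105274-152105573 on the plus strand for Srxn1 and chr3:50443564-50443863 on the minus strand for Slc7a11.
Akr1b8: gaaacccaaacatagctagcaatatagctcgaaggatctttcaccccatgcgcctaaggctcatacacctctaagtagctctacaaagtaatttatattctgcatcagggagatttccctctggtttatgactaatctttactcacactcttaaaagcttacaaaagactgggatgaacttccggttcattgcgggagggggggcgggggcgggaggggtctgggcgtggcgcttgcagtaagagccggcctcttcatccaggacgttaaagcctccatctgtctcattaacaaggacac
Gclm: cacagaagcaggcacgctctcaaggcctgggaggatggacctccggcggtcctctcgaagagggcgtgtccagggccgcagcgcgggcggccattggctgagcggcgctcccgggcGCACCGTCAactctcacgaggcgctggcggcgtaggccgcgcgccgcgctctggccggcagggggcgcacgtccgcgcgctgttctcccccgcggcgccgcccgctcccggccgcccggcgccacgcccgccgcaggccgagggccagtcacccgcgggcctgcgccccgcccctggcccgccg
Txnrd1: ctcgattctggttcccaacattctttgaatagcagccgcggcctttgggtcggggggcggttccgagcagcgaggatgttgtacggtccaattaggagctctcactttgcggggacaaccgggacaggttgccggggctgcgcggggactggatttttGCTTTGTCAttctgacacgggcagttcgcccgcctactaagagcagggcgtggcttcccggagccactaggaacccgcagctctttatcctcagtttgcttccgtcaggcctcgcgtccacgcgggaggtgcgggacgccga
Srxn1: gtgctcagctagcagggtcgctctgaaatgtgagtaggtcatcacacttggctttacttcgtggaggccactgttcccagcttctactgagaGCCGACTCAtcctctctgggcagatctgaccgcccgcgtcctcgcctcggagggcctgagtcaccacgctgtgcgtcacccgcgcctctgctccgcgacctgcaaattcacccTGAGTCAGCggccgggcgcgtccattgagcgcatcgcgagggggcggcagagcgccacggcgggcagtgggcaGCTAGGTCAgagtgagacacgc
Slc7a11: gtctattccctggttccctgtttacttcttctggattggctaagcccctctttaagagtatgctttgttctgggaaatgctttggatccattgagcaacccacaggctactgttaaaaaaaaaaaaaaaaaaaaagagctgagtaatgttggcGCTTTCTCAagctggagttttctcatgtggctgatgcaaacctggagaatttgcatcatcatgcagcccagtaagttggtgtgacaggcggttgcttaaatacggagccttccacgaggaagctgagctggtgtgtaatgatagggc

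Of the 10 genes, 7 matched a window by symbol, and Txnrd1, with 3 transcript starts, matched 3. Hmox1, Gclc and Gsr matched none. TGACNNNGC was in 4 of the 9 windows of these genes (44.4%), against 12.4% of all 32851 mouse windows and 14.2% of the 12181 windows of tested genes. The 4 belonged to Nfe2l2 with TGACTCCGC, Gclm with TGACGGTGC, Txnrd1 with TGACAAAGC in the second of its windows and Srxn1 with TGACCTAGC. The matches of Gclm, Txnrd1 and Srxn1 lie on the opposite strand, so the printed strand shows their reverse complement. TGAGNNNGC was in 2 of the 9 windows (22.2%), those of Srxn1 with TGAGTCAGC and TGAGTCGGC and of Slc7a11 with TGAGAAAGC, against 17.6% of all windows and 19.8% of those of tested genes. The Gclm match begins 134 bases before the start and the Txnrd1 match 92 bases before it. No matches overlapped, and the windows of Akr1b8 and Nqo1 held neither set of letters.

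The wild-type libraries held 4.49 to 4.72 M normalized counts each. These are whole numbers whose low values step as gene counts divided by a factor for the library and rounded would, while abundant genes stand lower than a single factor would put them, with no value over 8346. Summed markers of brain endothelium stood between 19690 and 23646 in every library, with 12 of 12 markers present. Pericyte and fibroblast markers varied far more between libraries, from 276 to 2856 and from 245 to 1142. Smooth muscle markers summed to 1816 to 3177. The macrophage sum was 40 to 163, with 8 of 10 markers averaging under 10 and 7 of them at 0 in 5 or more libraries. In bulk RNA, fewer cells of a type and less RNA per cell cannot be told apart. Libraries with the same replicate number were mostly alike, but replicates 3 and 4 of apical S1P and replicates 2 and 3 of basal S1P were each most like a library of another number. Xist, an RNA of the inactive X chromosome, was at 525 in S1P apical replicate 3, at 552 in S1P basal replicate 2, at 1417 in S1P apical replicate 4 and at 1382 in agonist apical replicate 2. In vehicle it was at 2251, 1063 and 190 in replicates 2, 3 and 4. By Xist these 4 libraries lay away from their number, although agonist apical replicate 2 was still most like a library of its own number. The counts of higher and lower genes among the 10 with basal S1P are also given without them, and without S1P basal replicate 3. Variance shares, counts over the gene lists and likeness to Akr1b8 are given with all libraries only.

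Levels between genes were compared per exonic kilobase, and gaps between abundant genes may be understated in this table. The length was the union of all exons annotated for a gene in GENCODE M21, whether or not their transcripts were expressed here. In the vehicle libraries Hmox1 was highest at 333 ± 113 normalized counts per kilobase (SD, n = 4). Srxn1 at 216 ± 34.9 and Nfe2l2 at 197 ± 7.38 came next, and they differed by less than their spread. Gsr at 145 ± 8.41, Txnrd1 at 136 ± 20.1, Nqo1 at 120 ± 25.8, Gclm at 113 ± 18.1 and Gclc at 109 ± 7.28 formed a run in which no neighbours differed beyond their spread. Akr1b8 at 67.0 ± 30.1 and Slc7a11 at 27.7 ± 22.4 were lowest. Their order rests on the length, 1499 bases for Akr1b8 and 13922 for Slc7a11. Before division by it Slc7a11 stood higher, at 386 normalized counts against 100.5. The steps from Hmox1 to Srxn1, from Nfe2l2 to Gsr, from Gclc to Akr1b8 and from Akr1b8 to Slc7a11 exceeded the larger SD of the pair. With basal S1P the level of Akr1b8 per kilobase was 140.1 ± 34.8 (SD, n = 4), which differed from the vehicle levels of Gsr and Txnrd1 by less than that spread.

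**Figure D1:**
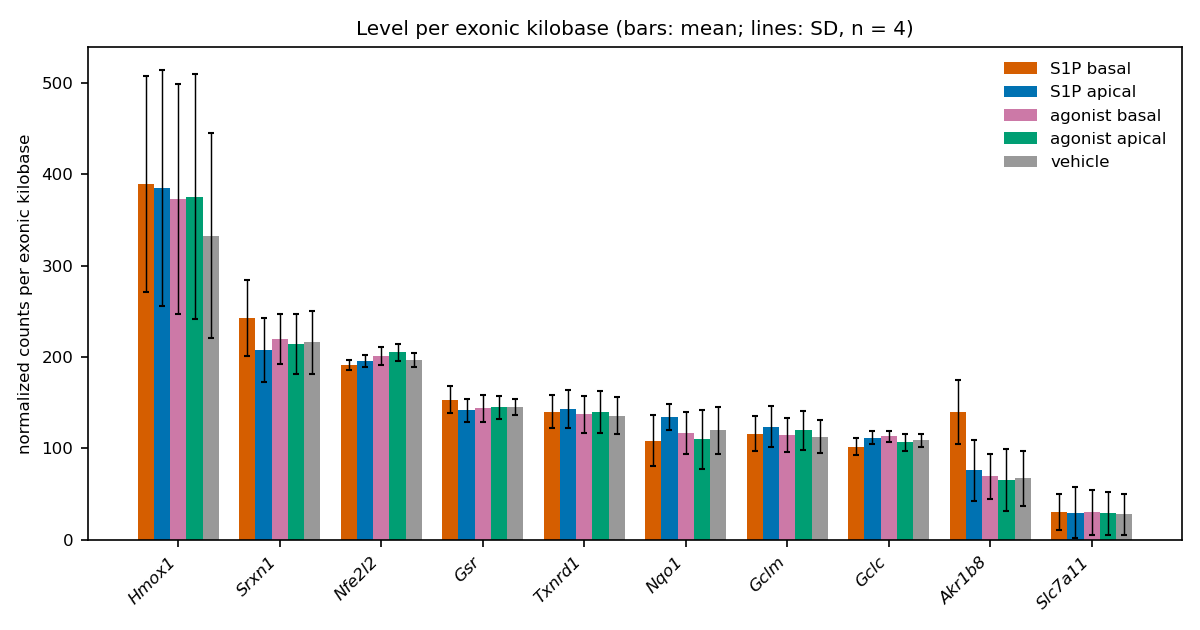
Mean level of each gene in normalized counts per exonic kilobase (vertical axis), with a bar per group and lines for the SD of 4 libraries, in the order of the vehicle means. Hmox1 stands highest at 333 and Slc7a11 lowest at 27.7 in vehicle, and the bar of Akr1b8 with basal S1P rises above its other 4. The length is the union of all annotated exons, and the place of Slc7a11 depends on it.

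Nfe2l2 (ENSMUSG00000015839, chr2:75675513-75704641, minus strand, mm10) encodes Nrf2 itself. It held 742, 717, 702 and 743 normalized counts in replicates 1 to 4 of basal S1P and 767, 759, 739 and 709 with apical S1P. The values were 777, 750, 716 and 805 with basal agonist, 805, 772, 731 and 807 with apical agonist and 720, 742, 738 and 786 in vehicle. All groups overlapped, and no library lay outside 702 to 807. With a standard error of 0.05 on the log2 scale it had the narrowest error of the 10 genes, and apical agonist left it at 0.06 ± 0.05 against vehicle (95% interval -0.05 to 0.17). Keap1, the adaptor that holds Nrf2 in check, stayed between 474 and 529 in the 20 libraries.

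Akr1b8 (ENSMUSG00000029762, chr6:34354119-34368463, plus strand) encodes an aldo-keto reductase that reduces reactive aldehydes. It held 169, 209, 284 and 178 normalized counts in replicates 1 to 4 of basal S1P (mean 210.0 ± 52.2, SD). With apical S1P it held 68, 91, 113 and 183, with basal agonist 79, 88, 159 and 89, with apical agonist 59, 78, 173 and 84 and in vehicle 74, 81, 168 and 79 (100.5 ± 45.1, SD, n = 4). The basal S1P libraries lay above those of vehicle by a single count, 169 against 168, and they overlapped those of apical S1P, up to 183, and of apical agonist, up to 173. Within a replicate number the ratio of basal S1P to vehicle was 2.28, 2.58, 1.69 and 2.25. Against apical S1P the ratios were 2.49, 2.30, 2.51 and 0.973. The last 3 involve S1P basal replicate 2, S1P apical replicate 3 and S1P apical replicate 4, each a library that lay away from its number. The ratio of 2.58 to vehicle also involves S1P basal replicate 2. On the log2 scale the difference of basal S1P from vehicle was 1.11 ± 0.34 (SE of the limma fit) and that from apical S1P 0.94 ± 0.34. Without the 4 libraries that lay away from their number these differences were 1.11 and 1.37. Over the 17 alternative settings tried, the difference from vehicle ranged from 0.96 to 1.39.

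The near relatives of Akr1b8 lie beside it on chromosome 6. Akr1b3, aldose reductase, held 185, 252, 231 and 188 normalized counts with basal S1P and 179, 166, 197 and 187 in vehicle, and these groups overlapped. Akr1b10 held 48 to 95 over the 20 libraries, and Akr1b7 is not analysed here. Of the 1448 stretches of 50 bases in the exons of Akr1b8, 31 also occur in Akr1b10, 3 in Akr1b7 and 0 in Akr1b3. Reads from those stretches could be split between Akr1b8 and its relatives.

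Hmox1 (ENSMUSG00000005413, chr8:75093621-75100589, plus strand) encodes heme oxygenase 1, which breaks heme down to biliverdin, iron and carbon monoxide. It held 529, 730, 955 and 513 normalized counts in replicates 1 to 4 of basal S1P, and 497, 532, 670 and 993 with apical S1P. The libraries of basal agonist held 519, 551, 983 and 561, those of apical agonist 559, 570, 1006 and 495 and those of vehicle 487, 497, 878 and 469. Replicate 3 was highest in 4 groups and replicate 4 with apical S1P, and the groups overlapped. The highest library stood well apart in vehicle and with the agonist on either side. In the S1P groups a second library, at 730 with basal and 670 with apical S1P, lay between it and the rest. Nqo1 (ENSMUSG00000003849, chr8:107388225-107403206, minus strand), a quinone reductase, had another order. It held 216, 187, 155 and 116 with basal S1P, 215, 232, 179 and 209 with apical S1P, 212, 188, 196 and 131 with basal agonist, 215, 167, 198 and 102 with apical agonist and 220, 211, 182 and 131 in vehicle. Replicate 4 was lowest in every group except apical S1P.

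Slc7a11 (ENSMUSG00000027737, chr3:49892526-50443614, minus strand) is the cystine importer that feeds glutathione synthesis. It held 241, 242, 817 and 367 normalized counts with basal S1P and 208, 200, 234 and 993 with apical S1P. It stood at 226, 228, 935 and 278 with basal agonist, at 197, 235, 887 and 283 with apical agonist and at 230, 202, 852 and 261 in vehicle. Replicate 3 in 4 groups and replicate 4 of apical S1P lay at 817 to 993, above every other library. Gclc and Gclm encode the catalytic and the modifier subunit of glutamate-cysteine ligase, which makes the first intermediate of glutathione. Gclm (ENSMUSG00000028124, chr3:122245557-122270732, plus strand) was likewise highest in those 5 libraries, at 907 in S1P basal replicate 3, 969 in S1P apical replicate 4, 893 and 951 in replicate 3 of basal and apical agonist, and 879 in vehicle replicate 3. Its other 15 libraries held 629 to 809. The exons of Gclm overlap those of Gm17494 on the opposite strand and of the pseudogene Gm6061 over 296 and 244 bases, and both averaged under 1 normalized count. Gclc (ENSMUSG00000032350, chr9:77754535-77794485, plus strand) did not follow it. Gclc held 430, 348, 377 and 378 with basal S1P, against 438, 423, 401 and 375 in vehicle, and its 12 remaining libraries held 352 to 455.

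Gsr, Txnrd1 and Srxn1 encode the enzymes that reduce oxidized glutathione, thioredoxin and hyperoxidized peroxiredoxins with the help of NADPH or thiols. Srxn1 (ENSMUSG00000032802, chr2:152105516-152111376, plus strand) held 567, 623, 838 and 709 normalized counts with basal S1P, 521, 526, 563 and 729 with apical S1P, 541, 582, 719 and 632 with basal agonist, 507, 578, 727 and 602 with apical agonist and 517, 540, 728 and 650 in vehicle. Its basal S1P mean, 684 ± 118, was the highest of the 5 groups and the lowest was 585 with apical S1P, but all groups overlapped. Txnrd1 (ENSMUSG00000020250, chr10:82833951-82897712, plus strand) was highest at 1182 in S1P basal replicate 3, 1221 in S1P apical replicate 4, 1186 and 1228 in replicate 3 of basal and apical agonist and 1173 in vehicle replicate 3. Its other 15 libraries held 860 to 1023. Gsr (ENSMUSG00000031584, chr8:33652523-33698163, plus strand) held 376, 400, 454 and 459 with basal S1P and 374, 394, 430 and 400 in vehicle, and over the remaining 12 libraries 352 to 446.

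**Figure D2:**
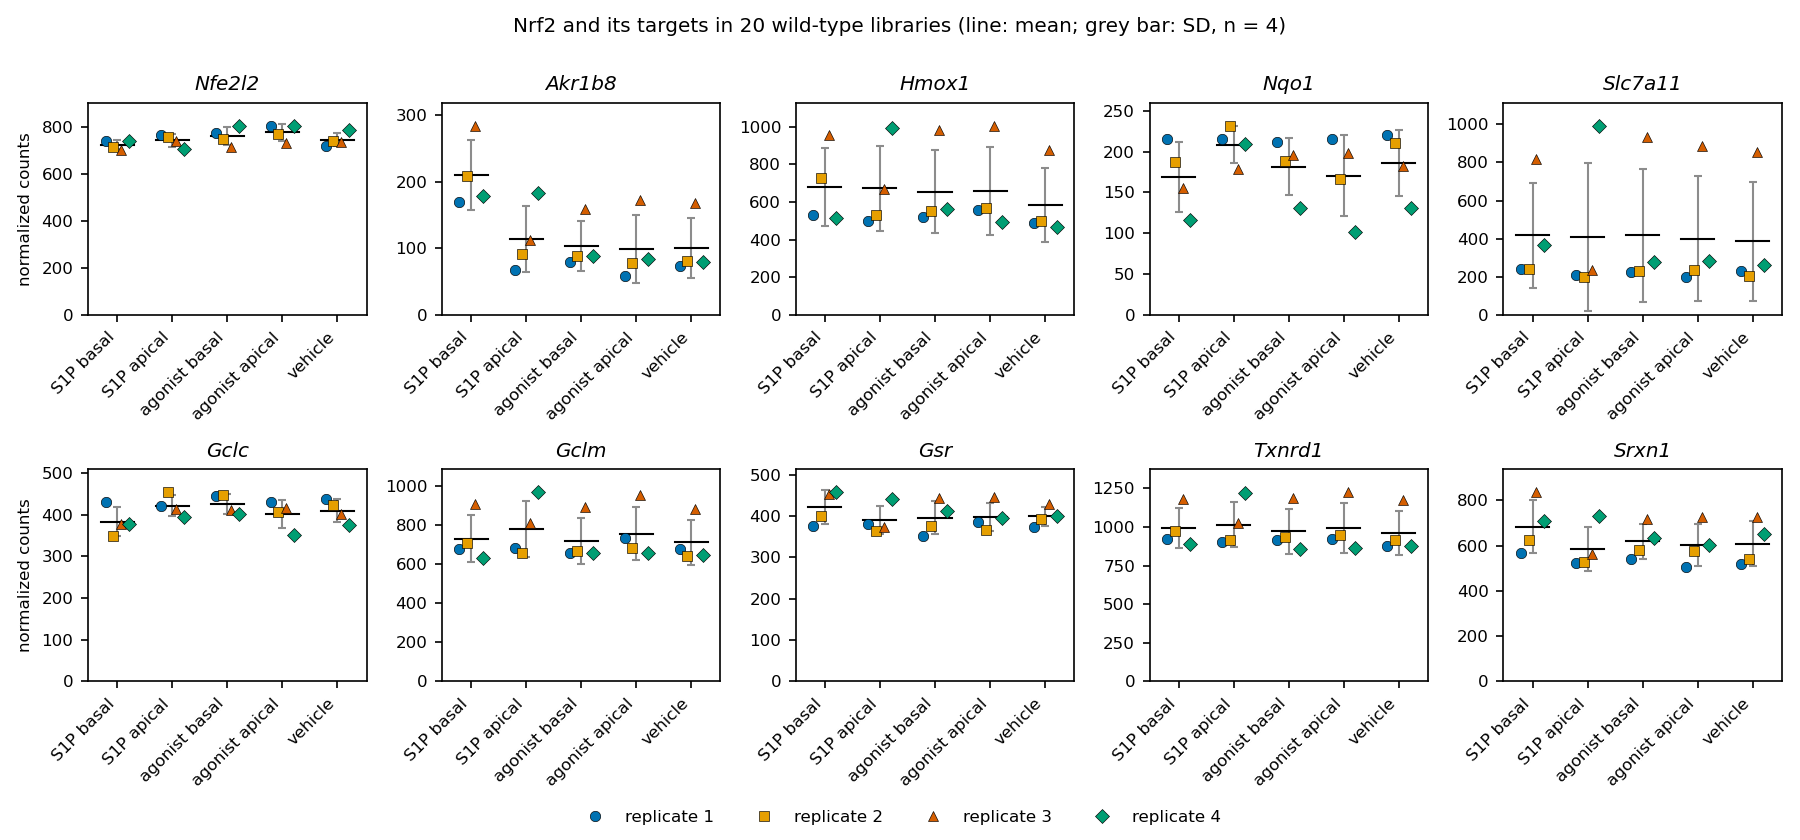
Normalized counts (vertical axes, from 0) of Nfe2l2 and its 9 targets in the 20 wild-type libraries by group, with a symbol per replicate number, a line at the mean and a grey bar for the SD of 4 libraries. Akr1b8 with basal S1P lies between 169 and 284, and replicate 3, or replicate 4 with apical S1P, is the highest symbol for Akr1b8, Hmox1, Slc7a11, Gclm, Txnrd1 and Srxn1.

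In all, 6 of the 10 genes, Akr1b8, Hmox1, Slc7a11, Gclm, Txnrd1 and Srxn1, were highest in replicate 3 of 4 groups and in replicate 4 of apical S1P. How many of all tested genes have this pattern was not counted, so it is not shown to be particular to these genes. Nfe2l2, Nqo1, Gclc and Gsr did not share that full pattern, although Gsr missed it in basal S1P alone, where replicate 4 at 459 stood above replicate 3 at 454. Sqstm1, which encodes the Keap1-binding autophagy receptor p62, was highest in those libraries too. It held 1339 in S1P basal, 1340 in S1P apical, 1302 in basal agonist, 1382 in apical agonist and 1226 in vehicle. Of other Nrf2 regulators, Keap1 and Bach1 did not share the pattern. Mafg missed it with apical agonist, at 465 in replicate 3 and 495 in replicate 4. Tubb3, a tubulin listed as a neuron marker, was highest in the same libraries as Sqstm1. It held 327, 248, 262, 214 and 273 there in the same order, while Rbfox3, the other neuron marker, averaged under 10. Fibroblast markers summed to 297, 264, 257, 245 and 357 in these libraries and macrophage markers to 40, 44, 58, 43 and 43. Pericyte markers summed there to 1069, 949, 1088, 995 and 1272. Fibroblast sums were also under 357 in the replicate 4 libraries of basal S1P, basal agonist, apical agonist and vehicle, at 326, 331, 353 and 342. In these replicate 4 libraries pericyte sums were lower, at 318, 276, 406 and 323. The part of these cell types in the levels of the 6 genes was not tested.

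The replicate number held more of the variance of the log2 level than the treatment did for 8 of the 10 genes. For Srxn1 it held 66.9% and the treatment 13.8%, for Slc7a11 61.0% and 0.800%, for Hmox1 59.7% and 4.32% and for Txnrd1 62.1% and 2.38%. Akr1b8 had 35.9% by number and 47.1% by treatment, and Nfe2l2 28.7% by number and 31.4% by treatment. The medians over all tested genes were 42.9% by number and 13.9% by treatment. These shares are a description of the 20 libraries.

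**Figure D3:**
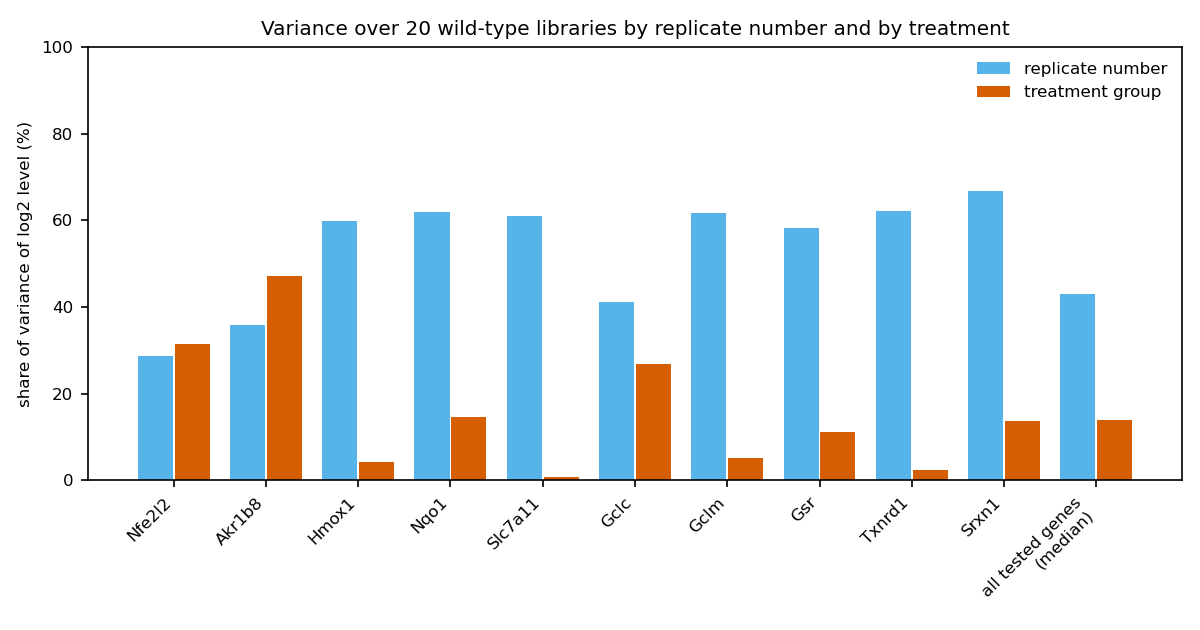
Share of the variance of the log2 level over 20 wild-type libraries (vertical axis, percent) taken by the replicate number and by the treatment group, for each gene and as the median over all tested genes. The bar for replicate number is the taller for all genes except Akr1b8 and Nfe2l2.

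With basal S1P against vehicle, 7 of the 10 genes were higher and 3 lower, with a median log2 change of 0.06, against 0.00025 over all 12249 tested genes. Without S1P basal replicate 3, 4 were higher and 6 lower, with a median of -0.03, and Gclm, Txnrd1 and Slc7a11 turned to lower. Vehicle replicate 3, their highest vehicle library at 879, 1173 and 852, was kept in that fit. The fits without S1P basal replicate 3, here and below, thus lower genes that are high in the libraries kept. They do not show that 1 library carries the counts. Without the 4 libraries that lay away from their number by Xist, 7 were higher and 3 lower. Akr1b8 was the 1 gene of the 10 whose libraries did not overlap those of vehicle, beside 1.03% of all tested genes that were higher with no overlap. After Akr1b8 the largest changes were those of Hmox1 at 0.23 ± 0.28, Slc7a11 at 0.19 ± 0.62 and Srxn1 at 0.17 ± 0.14. Within a replicate number the ratio of basal S1P to vehicle was 1.10, 1.15, 1.15 and 1.09 for Srxn1 and 1.09, 1.47, 1.09 and 1.09 for Hmox1, above 1 in each number. Txnrd1 at 1.01 to 1.06 and Gsr at 1.01 to 1.15 were also above 1 in each, while Slc7a11 ranged from 0.959 to 1.41. The ratios of number 2, with the 1.47 of Hmox1, involve S1P basal replicate 2, which lay away from its number. Replicate numbers were not taken as pairing samples, and the share of all tested genes above 1 in each number was not counted. Nqo1 at -0.15 ± 0.23, Gclc at -0.10 ± 0.08 and Nfe2l2 at -0.04 ± 0.05 were the 3 lower genes. Of all tested genes, 0.0245% had a limma adjusted p under 0.05 against vehicle and 0.0245% against apical S1P, shares that moved with the setting. Against apical S1P 5 of the 10 genes were higher and 5 lower with basal S1P, and without the 4 libraries 7 were higher and 3 lower. Without S1P basal replicate 3 the counts against apical S1P were 3 higher and 7 lower. Against the 3 other treatments together, 6 were higher and 4 lower with basal S1P, Akr1b8 at 1.05 ± 0.28, beside 0.049% of all tested genes called. Here 7 were higher and 3 lower without the 4 libraries, and 3 higher and 7 lower without S1P basal replicate 3. Akr1b8 was chosen on these comparisons and the list was drawn up around it, so no test of its genes is given for them.

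The other treatments were tested with limma over all 12249 genes, in comparisons that share the vehicle libraries with the basal S1P comparison. Basal agonist against vehicle had 8 of the 10 genes higher and 2 lower, with a median log2 change of 0.03, and 0 were called at an adjusted p under 0.05, beside 0% of all tested genes. Apical agonist against vehicle had 5 higher and 5 lower, a median of 0.02 and 0 called, beside 0% of all genes. Apical S1P against vehicle had 6 higher and 4 lower, a median of 0.06 and 0 called, again beside 0%. At an unadjusted p under 0.05, 0 of the 10 genes passed in these 3 comparisons, while 38, 134 and 122 of all tested genes did in the order given. The smallest limma adjusted p of the 10 genes was 0.9998 with basal agonist, 0.9999 with apical agonist and 0.9996 with apical S1P. These counts of higher and lower genes moved when 1 library was left out of 1 group alone. Of the 10 genes, 6 were highest in replicate 3 of vehicle and the agonist groups and in replicate 4 of apical S1P. Leaving such a library out on 1 side moves those genes toward the other side. The moves below therefore do not show that a count rests on 1 library. Without replicate 3 of the treated group, basal agonist had 2 higher and 8 lower and apical agonist 1 and 9, and without replicate 4 apical S1P had 4 and 6. Without vehicle replicate 3 they had 9 and 1, 8 and 2, and 9 and 1. Without the 4 libraries, the median with apical S1P was -0.09.

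The intervals come from the fit without a replicate block and show what sizes that fit leaves possible. The spread between replicate numbers, which held 61.0% of the variance of Slc7a11, adds to their width. By number, Slc7a11 held 226, 228, 935 and 278 with basal agonist and 230, 202, 852 and 261 in vehicle. For Akr1b8 the log2 change was 0.08 with basal agonist (95% interval -0.65 to 0.80), -0.06 with apical agonist (-0.78 to 0.66) and 0.17 with apical S1P (-0.55 to 0.89). For Slc7a11, the gene with the widest error, it was 0.09 with basal agonist (-1.21 to 1.40), 0.04 with apical agonist (-1.26 to 1.35) and -0.02 with apical S1P (-1.33 to 1.28). Gclc was far tighter, at 0.06 with basal agonist (-0.10 to 0.22), -0.03 with apical agonist (-0.19 to 0.13) and 0.04 with apical S1P (-0.12 to 0.21). The sign of a change within these intervals is not established, and for Akr1b8 with apical S1P it was -0.26 without the 4 libraries and for Slc7a11 -0.64.

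The agonist was also compared between the 2 sides, basal against apical, which involves no vehicle library and no S1P library. Of the 10 genes 5 were higher and 5 lower on the basal side, and limma called 0, beside 0% of all tested genes. The split was 2 higher and 8 lower without agonist basal replicate 3, and 9 higher and 1 lower without agonist apical replicate 3. Replicate 3 was the highest library on either side for 6 of the 10 genes, and each of these fits left it out on 1 side only. In the same comparison 0 of the 10 genes and 61 of all tested genes passed an unadjusted p under 0.05. Akr1b8 stood at 0.14 (95% interval -0.58 to 0.86), Nqo1 at 0.12 (-0.36 to 0.60) and Gclc at 0.09 (-0.07 to 0.25), and the smallest limma adjusted p among the 10 was 0.9999.

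**Figure D4:**
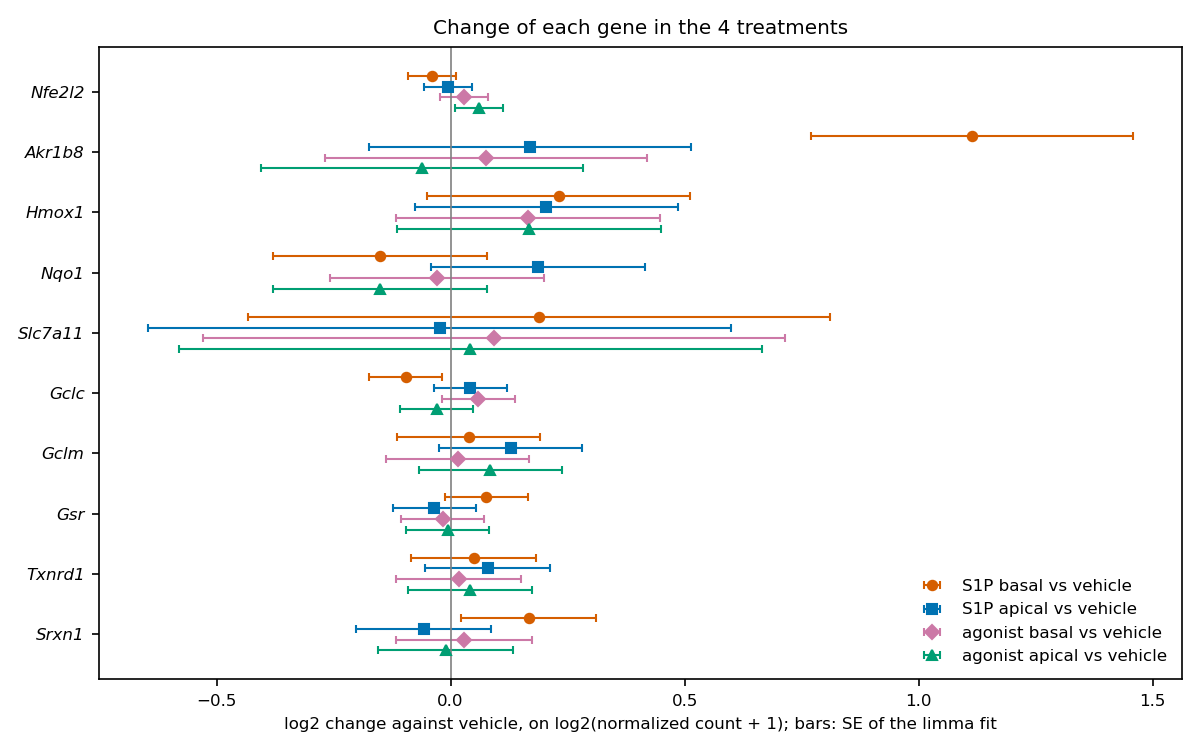
Log2 change of each gene against vehicle (horizontal axis, on log2 of normalized count + 1), with symbols for the 4 treatments and bars for the standard error of the limma fit. Akr1b8 with basal S1P lies at 1.11, and the changes with the other 3 treatments reach at most 0.205 in size for the 10 genes.

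Around these genes, 10 lists of related genes were counted, holding 124 distinct tested genes, and they too were chosen with earlier results known. Against the same vehicle libraries 83 of the 124 were higher with basal S1P, 76 with apical S1P, 73 with basal agonist and 80 with apical agonist. These are 66.9%, 61.3%, 58.9% and 64.5%, beside 50.0%, 49.8%, 52.5% and 48.5% of all tested genes in the same order. The thioredoxin and peroxiredoxin system had 14 of 16 genes higher with basal S1P, 14 with apical S1P, 11 with basal agonist and 13 with apical agonist. Of 14 glutathione enzymes 12, 11, 8 and 10 were higher, of 10 genes of NADPH supply 9, 6, 7 and 8, and of 6 aldo-keto reductases other than Akr1b8 6, 5, 3 and 5, in the same order of treatments. The median log2 changes of these 4 lists with basal S1P were 0.14, 0.12, 0.16 and 0.13. Txnip at -0.21 and Txnrd3 at -0.44 were the 2 lower genes of the thioredoxin and peroxiredoxin system with basal S1P. Among the NADPH genes, Tkt, a transketolase of the pentose phosphate pathway, was at 0.22 ± 0.08 with basal S1P and Taldo1, its partner transaldolase, at 0.24 ± 0.17. The regulators of Nrf2 were divided, with 8 higher and 9 lower of 17 with basal S1P. Phase 2 detoxification and export had 12 higher and 10 lower, at a median of 0.016. Superoxide and peroxide removal with NADPH oxidases had 4 higher and 4 lower, at -0.007. Heme and iron handling had 8 higher and 3 lower, and the list of ATF4 targets 11 higher and 5 lower, each at a median of 0.12.

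The genes around the aryl hydrocarbon receptor, a sensor of planar aromatic compounds that also drives Nqo1, were mostly lower than in vehicle in all 4 treatments. With basal S1P 6 of 6 were lower, with a median log2 change of -0.78. With apical S1P 6 of 6 were lower at a median of -0.24, with basal agonist 5 of 6 at -0.22 and with apical agonist 6 of 6 at -0.21. Ahr itself held 338, 216, 194 and 298 normalized counts with basal S1P, against 544, 428, 340 and 491 in vehicle, with no overlap, as for 1.08% of all tested genes that were lower. Cyp1a1, an oxidase that the receptor induces, held 138, 106, 267 and 301 with basal S1P and 423, 186, 387 and 483 in vehicle, which overlapped. In the 3 other treatments against vehicle limma called 0 of the 124 genes at an adjusted p under 0.05. At an unadjusted p under 0.05, Cebpb passed with apical agonist, Txnrd3, Psat1 and Vldlr with apical S1P and none with basal agonist. Cebpb, a transcription factor, was at 0.49 ± 0.19 with apical agonist. Psat1, which makes phosphoserine, was at 0.21 ± 0.10 with apical S1P, where Txnrd3, a thioredoxin reductase, was at -0.35 ± 0.14 and Vldlr, a lipoprotein receptor, at -0.52 ± 0.21.

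The genes whose log2 level was most like that of Akr1b8 over the 20 wild-type libraries were Ubtd1, Oaf, Farsa, Piwil2 and Me2, with Pearson r of 0.912, 0.910, 0.907, 0.905 and 0.905. The most opposed were Gbp5 at -0.956, Ahr and St3gal1, both at -0.938. Of the Nrf2 targets Srxn1 was most like Akr1b8 at 0.814, before Hmox1 at 0.749, Slc7a11 at 0.725, Gsr at 0.716, Txnrd1 at 0.705 and Gclm at 0.625. Their ranks among all tested genes other than Akr1b8 were 168, 555, 760, 845, 940 and 1836. Many genes outside the set were thus more like Akr1b8 than any of these targets. Nqo1 at -0.088, Gclc at -0.44 and Nfe2l2 at -0.744 were not alike. The points share replicate numbers and the libraries that stood high together, so these values describe the 20 libraries.

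In the 4 libraries labelled S1P4 KO/KO, scaled apart from the wild-type table, the 10 genes were all detected. S1pr4, the targeted gene, was detected there too, at 250, 261, 349 and 260 normalized counts, and the sources used here do not give the deleted part. Akr1b8 held 156, 177, 171 and 160, Hmox1 2355, 2058, 2388 and 2406 and Slc7a11 433, 277, 318 and 210. Per M of normalized counts, Akr1b8 stood at 9.45 ± 0.625 in the libraries labelled knockout and at 22.0 ± 10.2 in wild-type vehicle (SD, n = 4 each), Slc7a11 at 17.6 ± 5.38 and 84.9 ± 69.8, and Nfe2l2 at 194 ± 8.24 and 163 ± 4.93. Low genes in general stood higher per M in wild-type vehicle. Genes above 1 per M in both tables were split into 5 sets by knockout level. The 2 lowest sets had medians of 2.861 and 12.83 per M in the knockout table and 8.245 and 28.85 in wild-type vehicle. The highest value was 266381 in the knockout table and 8346 in the wild-type table, in which abundant genes are compressed. The tables were therefore not tested against each other, and no direction is read from them. Within the libraries labelled knockout, Slc7a11 showed no library as far above the rest as in wild type.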

How the data were processed

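The 20 wild-type libraries and the 4 labelled knockout came in separate tables from the authors. Each deposited value is a signal per gene, called a normalized count here: its low values step as gene counts divided by a factor per library and rounded would, as read from the values. Per the submitters' processing notes, FastQC, Trimmomatic 0.38, STAR 2.7.3a, featureCounts 1.6.5 (Subread), DESeq2 1.26.0 and mm10 were used, with no role or order given. The sources used here do not give the strand setting or the handling of duplicates. Rounding kept the reads from being recovered, so no count model and no counting interval is given.

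Genes with a wild-type mean of at least 10 were fitted as group means on log2(value + 1) with limma 3.58.1 (R 4.3.3, mean-dependent prior variance, two-sided), with Benjamini-Hochberg adjustment over 12249 genes. Fold changes on this scale understate changes of low genes, and, since the wild-type table compresses abundant genes, possibly of those too. The members, gene lists and tests were chosen with earlier results of these data known. Named beyond the 10 members were at most 4 genes per list by mean level and list genes past a threshold. The extremes of likeness to Akr1b8, its paralogs and library marks were named too. Cebpb, Tubb3, Keap1, Bach1, Mafg and Taldo1 were chosen after their values were seen where they fell outside that rule. So were the list genes with an unadjusted p under 0.05. The fit was tested on simulated data drawn with no replicate effect. That run does not show how the fit handles libraries that are alike by replicate number. Alternatives changed the pseudocount, filter, scaling, block, groups fitted, weights and libraries.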

Additional observations from a re-analysis of the deposited data

Results flagged for a closer look

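In 15 of 60 groups of 4 libraries, a library lay further from the others than Dixon's 95% limit allows, which chance gives in about 1 in 20 groups. In wild-type cells these were replicate 3 for Akr1b8 at 159 normalized counts with basal agonist and 168 in vehicle, for Hmox1 at 983 with basal agonist, 1006 with apical agonist and 878 in vehicle, and for Gclm at 893 with basal agonist and 879 in vehicle. The same replicate stood apart for Txnrd1 at 1173 in vehicle and for Slc7a11 at 935 with basal agonist, 887 with apical agonist and 852 in vehicle. With apical S1P it was replicate 4, at 993 for Slc7a11. These genes are related and share libraries, so the groups are not independent of each other.

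In the libraries labelled knockout, Hmox1 had a low library at 2058, Gclc a low library at 677 and Gsr a high library at 1083 normalized counts. The low Hmox1 library was replicate 2, and the Gclc and Gsr libraries were both replicate 4.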

How the results depend on the processing

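Of the 10 genes, 0 were called in any of the 4 tested comparisons under any alternative, with limma adjusted p-values of at least 0.408. The median log2 change of the 10 genes took either sign with 1 library left out, from -0.03 to 0.15 for basal S1P against vehicle, -0.12 to 0.12 against apical S1P and -0.098 to 0.093 against the 3 other treatments. It ran from -0.073 to 0.12 for basal agonist, -0.063 to 0.11 for apical agonist and -0.0068 to 0.18 for apical S1P against vehicle, and from -0.077 to 0.12 for basal against apical agonist. Each such fit left a library out of 1 group only, so replicate numbers shared by the groups were no longer balanced. The number of all tested genes called with basal S1P did move. Against vehicle it was 3, and 47 with the replicate block, 0 with only the groups compared, 13 with array weights and 2 to 4 with 1 library left out. Against apical S1P it was 3, and 83 with the replicate block, 1 with only the groups compared, 0 without the 4 libraries unlike their number and 1 to 3 with 1 library left out. Against the 3 other treatments together it was 6, and 137 with the replicate block, 3 with only the groups compared, 27 with array weights and 3 to 9 with 1 library left out. Replicate numbers were not taken as pairing samples: 36 of 40 pairs of the same number correlated above 0.1, the lowest at -0.345, and 16 of 20 libraries were most like one of their own number. With the block the standard error of the basal S1P change was 0.21 for Akr1b8 and 0.078 for Srxn1.

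Signs turned in 92 values of the 4 tested comparisons, all of changes that passed no test, and the cause was not tested. In the described comparisons they turned in 37 values, 7 of basal S1P against vehicle, 14 against apical S1P and 16 against the 3 other treatments. Without the 4 libraries, apical S1P against vehicle had 0.0322 for Nfe2l2, -0.26 for Akr1b8, -0.13 for Hmox1, -0.0738 for Gclm and -0.0697 for Txnrd1, apical agonist against vehicle 0.00911 for Akr1b8, 0.00602 for Srxn1 and 0.0339 for Gsr and basal against apical agonist -0.11 for Slc7a11. With array weights, apical S1P had 0.0282 for Nfe2l2 and 0.0581 for Slc7a11, apical agonist 0.00108 for Akr1b8 and 0.0792 for Srxn1 and basal against apical agonist -0.0117 for Srxn1 and -0.0905 for Slc7a11. Upper-quartile rescaling gave 0.00291 for Nfe2l2 with apical S1P. The remaining turns came with 1 library left out of 1 group, which unbalances the replicate numbers. For basal agonist against vehicle, the range was -0.15 to 0.35 for Akr1b8, -0.0483 to 0.38 for Hmox1, -0.19 to 0.12 for Nqo1, -0.0938 to 0.12 for Gclm, -0.0821 to 0.12 for Txnrd1, -0.0463 to 0.12 for Srxn1, -0.39 to 0.56 for Slc7a11 and -0.0732 to 0.0371 for Gsr. For apical agonist against vehicle, the range was -0.37 to 0.21 for Akr1b8, -0.0565 to 0.38 for Hmox1, -0.31 to 0.0756 for Nqo1, -0.0704 to 0.0325 for Gclc, -0.032 to 0.19 for Gclm, -0.0659 to 0.14 for Txnrd1, -0.10 to 0.0799 for Srxn1, -0.43 to 0.51 for Slc7a11 and -0.0609 to 0.0339 for Gsr. For apical S1P against vehicle, the range was -0.0228 to 0.0193 for Nfe2l2, -0.089 to 0.44 for Akr1b8, -0.00069 to 0.42 for Hmox1, -0.0129 to 0.18 for Txnrd1, -0.17 to 0.0326 for Srxn1, -0.58 to 0.45 for Slc7a11 and -0.0947 to 0.00089 for Gsr. For basal against apical agonist, the range was -0.0859 to 0.45 for Akr1b8, -0.22 to 0.22 for Hmox1, -0.10 to 0.27 for Nqo1, -0.18 to 0.0473 for Gclm, -0.12 to 0.0827 for Txnrd1, -0.0402 to 0.13 for Srxn1, -0.43 to 0.53 for Slc7a11 and -0.0676 to 0.0436 for Gsr. Few libraries per group and their shared highs in replicate 3 limit the precision for Slc7a11, Akr1b8 and Hmox1 in the fit without the block. Small changes of these genes were not detectable with it.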
